A study of Mus musculus with 15 samples.

Results

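Tumors taken at the 2 sides of the cardia, the part of the stomach next to the oesophagus, were compared with each other. The comparison used 6 of the 15 libraries of the study: 3 from tumors at the greater curvature side and 3 from tumors at the lesser curvature side, chosen by their sample labels, over all genes. The other 9 libraries, from normal stomach, antrum tumors and corpus tumors, 3 each, entered the statistical fit and are given as ranges. All 15 samples, the normals included, came from C57BL/6 mice that carried Pou2f3-CreERT and LSL-MycT58A together with Rb1fl/fl and Trp53fl/fl, 7 to 8 weeks old, given tamoxifen intraperitoneally at 50 mg/kg and with a 5 week time label. In this model the Cre recombinase, switched on by tamoxifen, is driven by Pou2f3, the master regulator of tuft cells (chemosensory cells of the gut lining), so recombination is meant to start in cells that use that promoter. The recombined cells lose the tumor suppressors Rb1 and Trp53 and gain a stabilised form of Myc. The labels number the samples as biological replicates without saying whether they came from separate animals, so the tests measure the spread between these samples. Libraries are named here by side and number, as greater curvature 2.

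The mouse stomach has a forestomach lined by keratinising squamous epithelium and a glandular part lined by mucous, parietal, chief and endocrine cells, and the border between them reaches the cardia. Squamous cells divide in a basal layer and switch keratins as they move up. At the surface they build a cornified envelope from loricrin, involucrin, the small proline-rich proteins and the late cornified envelope proteins, cross-linked by transglutaminases.

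Total counts were 13191324, 21564972 and 16349125 in greater curvature 1, 2 and 3 and 16338129, 7957165 and 17218092 in lesser curvature 1, 2 and 3. Greater curvature 2 stood apart: it held the highest of the 6 values for 34.8% of the tested genes and the lowest for 32.9%. Lesser curvature 1 came next, with 23.1% and 29.8%. The median standard deviation of log2 CPM (CPM being counts per 1e+06 of the scaled library) was 0.51 across the greater curvature libraries, 0.20 without greater curvature 2, and 0.37 across the lesser curvature libraries. The summed level of 4 Y-linked genes was 3.83 and 4.96 CPM in the libraries numbered 1 and 165 to 176 CPM in the other 4, so each side held 1 library with low values. The first principal component of the 6 tumors carried 54.2% of the variance and placed greater curvature 2 at one end and lesser curvature 1 at the other. The second carried 20.0%, and on it the sides did not overlap: the greater curvature libraries lay at -84.7, 7.89 and -42.0 and the lesser curvature libraries at 22.1, 52.6 and 44.1.

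**Figure D1:**
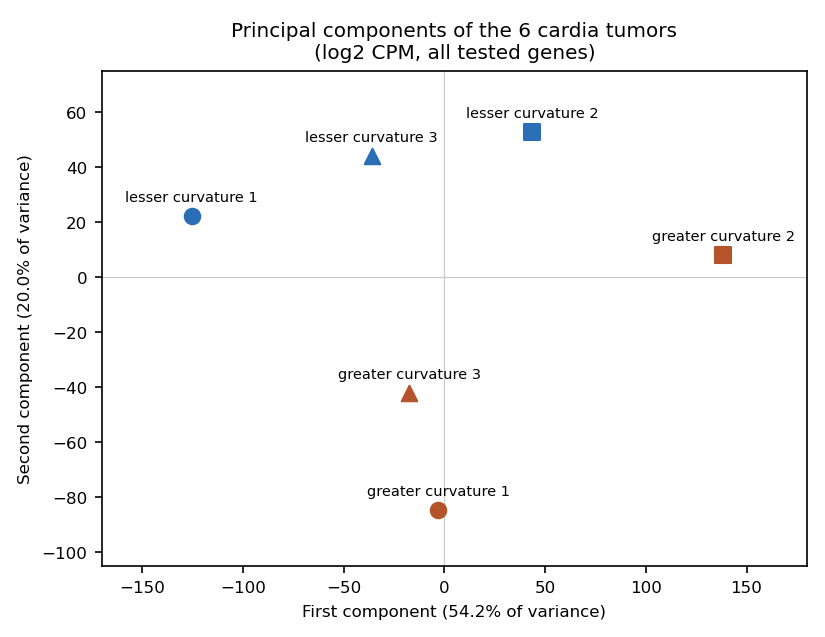
Principal components of log2 CPM over the 6 cardia tumors, with the share of variance on each axis. Each point is 1 library, orange for the greater and blue for the lesser curvature, with circles, squares and triangles for numbers 1, 2 and 3. The first axis runs from lesser curvature 1 to greater curvature 2, and all 3 lesser curvature libraries lie above all 3 greater curvature libraries on the second.

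No gene passed between the sides in edgeR. Among 16224 tested genes, edgeR's quasi-likelihood test with Benjamini-Hochberg adjustment called 0 higher and 0 lower in the greater curvature tumors at an adjusted p under 0.05 (0% of genes), and the smallest adjusted p was 0.300, for Maob. At an unadjusted p under 0.05 the counts were 474 higher (2.92%) and 415 lower (2.56%), together 5.48% of genes. All 3 greater curvature values lay above all 3 lesser curvature values for 759 genes (4.68%) and below them for 828 (5.1%). The 95% interval of the fold change lay within 2-fold for 38.9% of genes and within 4-fold for 70.7%, and for the other genes the interval reached beyond those sizes. Other tools run on the same counts gave calls. DESeq2 called 29 genes higher (0.18%) and 52 lower (0.322%), and limma voom with sample quality weights called 8 (0.0493%) and 3 (0.0185%). Of the 52 lower genes in DESeq2, 25 had no count in any greater curvature library and 12 belonged to the late cornified envelope family. All differences below are greater minus lesser curvature in edgeR, none passed there at the adjusted threshold, and an adjusted p not printed was above 0.300.

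The gene with the smallest p was Maob (chrX:16709282-16817366 on GRCm38, minus strand, protein coding), which encodes monoamine oxidase B, an enzyme of the mitochondrial outer membrane that breaks down amines. Maob stood at 2.79, 6.16 and 3.46 CPM in the greater curvature tumors and at 21.3, 28.3 and 28.9 CPM in the lesser curvature tumors. Every greater curvature value was below every lesser curvature value, and also below the normal stomach range of 13.8 to 29.6 CPM and the antrum tumor range of 8.97 to 16.5 CPM. The log2 difference was -2.66 (SE 0.39, edgeR adjusted p = 0.300), and the 3 same-numbered pairs differed by -2.88, -2.18 and -3.02. With the replicate number as a block, the difference was -2.73 (SE 0.28) and Maob was the 1 called gene (0.00616% of genes), with an edgeR adjusted p of 0.0303. DESeq2, limma voom with sample weights and limma on both log scales of the deposited TPM values also called Maob lower, limma as 1 of 5 lower genes with TPM plus 1 (0.0325%) and 1 of 2 with TPM plus 0.1 (0.013%). Without greater curvature 2, Maob differed by -3.06 on the log2 scale, with an edgeR adjusted p of 0.208.

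The other 10 leading genes of this direction were taken by smallest p among genes whose sides did not overlap and whose higher side averaged at least 5 CPM. Several are genes of nerve or endocrine cells. Nos1, the nitric oxide synthase of inhibitory gut neurons, stood at 0.766, 1.53 and 1.36 CPM against 13.1, 4.59 and 3.30 CPM. Of 15 enteric neuron and glia genes tested, only Nos1 lay below without overlap (6.67%, against 5.1% of all genes). In that list 9 genes had negative and 6 positive differences, so it did not move as a whole. Cntfr, the receptor subunit for ciliary neurotrophic factor, stood at 5.99, 1.07 and 2.46 CPM against 30.8, 9.18 and 35.8 CPM. For both genes the lesser curvature values varied widely among themselves and still stayed above the other side. Pcsk2, a convertase that cuts prohormones in endocrine cells, stood at 4.11, 2.85 and 4.29 CPM against 30.7, 57.5 and 13.4 CPM, while antrum tumors held 48.7 to 76.7 CPM. Ppp2r2b, a regulatory subunit of protein phosphatase 2A, stood at 4.11, 3.11 and 4.45 CPM against 15.4, 9.85 and 11.9 CPM. Kif19a, a kinesin that limits the length of cilia, stood at 1.11, 2.09 and 1.26 CPM against 11.1, 5.04 and 14.7 CPM. Krt16, Endou, Plagl1, Cdkn1c and Zfp142 completed the set. All 11 genes were chosen for sides that do not overlap, so each same-numbered pair had to differ in this direction.

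Of the 12 leading genes of the other direction, the smallest p belonged to Rgs3. Rgs3 (chr4:62559847-62704001 on GRCm38, plus strand, protein coding), a protein that switches off G protein signals, stood at 36.2, 41.5 and 42.0 CPM in the greater curvature tumors and at 16.7, 24.7 and 20.7 CPM in the lesser curvature tumors. Its values were narrow within each side, and the log2 difference was 0.95 (SE 0.16, edgeR adjusted p = 0.589). Lrmp, an endoplasmic reticulum membrane protein of lymphoid and tuft cells, stood at 31.1, 16.3 and 16.5 CPM against 1.67, 6.71 and 4.20 CPM, a log2 difference of 2.36 (SE 0.51). Pdk2, a kinase that slows pyruvate entry into the citric acid cycle, stood at 32.8, 34.7 and 18.9 CPM against 6.58, 12.6 and 9.17 CPM. Btg2, an antiproliferative gene and a p53 target, stood at 188, 147 and 143 CPM against 76.9, 107 and 77.9 CPM. For these 4 genes every lesser curvature value also lay under the normal range, which was 26.0 to 28.7 CPM for Rgs3, 8.15 to 13.2 CPM for Lrmp, 41.6 to 68.5 CPM for Pdk2 and 222 to 251 CPM for Btg2. For Pdk2 and Btg2 every greater curvature value lay under the normal range too. Antrum and corpus tumors also did, at up to 25.5 and 40.2 CPM for Pdk2 and up to 148 and 215 CPM for Btg2. Tfpi, the inhibitor of tissue factor in clotting, stood at 13.7, 14.6 and 12.3 CPM against 4.91, 7.72 and 5.16 CPM. Pigyl, Ddt, Bri3, Gadd45g, Hsd3b7 and Higd2a had log2 differences of 0.67 to 1.06, and Prss2, a trypsinogen, is described with the pancreatic enzymes. Of these 23 leading genes, 21 were called by DESeq2, which called 0.18% of all genes higher and 0.322% lower. The 23 were chosen from the same counts by small p and sides that do not overlap, so this is no separate support.

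**Figure D2:**
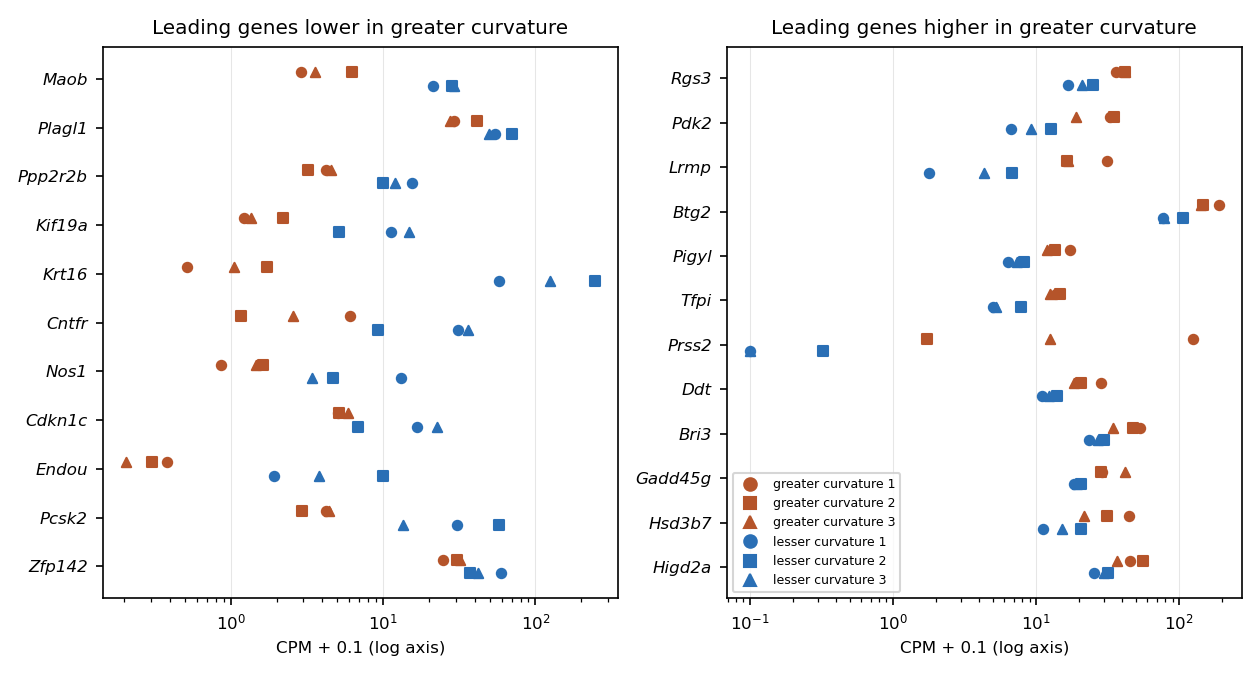
CPM plus 0.1 on a log axis for the leading genes described, 11 lower and 12 higher in the greater curvature tumors, 1 point per library, orange for the greater and blue for the lesser curvature, with circles, squares and triangles for numbers 1, 2 and 3. The genes were chosen for sides that do not overlap, so the gap is a description. Maob and Krt16 show wide gaps, while Zfp142 and Higd2a are separated by little.

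The engineered genes and the genes named in the study's title overlapped between the sides. Myc, the proto-oncogene added by the allele, stood at 245, 103 and 362 CPM against 765, 180 and 503 CPM, a log2 difference of -1.03 (SE 0.62), with lower values in each same-numbered pair and overlapping sides. Both sides lay above the normal range of 39.1 to 98.4 CPM. Pou2f3, which drives the Cre, stood at 0.975, 2.75 and 0.262 CPM against 0.147, 1.23 and 1.003 CPM. Rb1, the retinoblastoma gene, stood at 37.5, 47.2 and 45.9 CPM against 31.6, 41.6 and 29.5 CPM, and Trp53 at 70.5, 36.5 and 44.9 CPM against 24.0, 46.3 and 26.4 CPM. Rb1 and Trp53 counts sum the whole gene, so reads outside a deleted part and reads from cells without recombination count too, and these values check nothing about the deletion. Cxcl5, a neutrophil attractant that acts through Cxcr2, stood at 13.8, 89.9 and 18.1 CPM against 7.57, 36.3 and 14.7 CPM, above the normal range of 0.0735 to 0.523 CPM on both sides. Its log2 difference was 1.06 (SE 1.07) and -0.29 without greater curvature 2. Cxcr2 stood at 1.25, 5.40 and 2.20 CPM against 2.60, 2.46 and 2.48 CPM. Dclk1, a tuft cell kinase fixed for mention beside them, stood at 22.7, 30.8 and 30.9 CPM against 35.7, 37.0 and 59.9 CPM, with no overlap. The tuft cell list did not share this direction: 14 of 16 tested members had positive differences. In that list 1 member lay above and 1 below without overlap (6.25% each, against 4.68% and 5.1% of all genes). Its median was 1.04, and 0.09 without greater curvature 2.

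Among the lists with at least 10 tested members, squamous genes had the largest share of members with lower values throughout the greater curvature tumors. Of 22 tested members, 21 had a negative log2 difference and 17 had all 3 greater curvature values below all 3 lesser curvature values (77.3%, against 5.1% of all genes). Without greater curvature 2 the number was 18, against 9.28% of all genes. The list median was -4.49, beside 0.04 over all genes, and -7.15 without greater curvature 2. In the same-numbered pairs, 18 of 22 members were lower in all 3, against 19.2% of all genes. None passed in edgeR, where 10 had an unadjusted p under 0.05 in the direction of lower values (2.56% of all genes had). That number was 16 with the replicate block (3.09% of all genes) and 11 without greater curvature 2 (1.72%). It fell to 4 without greater curvature 1, to 4 without greater curvature 3 and to 6 without lesser curvature 2. In bulk RNA, fewer squamous cells and less RNA per squamous cell cannot be told apart.

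Krt16 (chr11:100246091-100248902 on GRCm38, minus strand, protein coding), a keratin of stressed and hyperproliferative squamous epithelium, stood at 0.418, 1.63 and 0.943 CPM in the greater curvature tumors and at 57.2, 245 and 124 CPM in the lesser curvature tumors. Its log2 difference was -7.12 (SE 1.86). Krt6b, its usual partner family, stood at 0.209, 5.35 and 0.157 CPM against 85.9, 448 and 149 CPM. Krt10, a keratin of cells leaving the basal layer, stood at 2.16, 1.89 and 1.68 CPM against 28.9, 454 and 114 CPM. Each lesser curvature library was high for all 3 keratins, lesser curvature 2 most of all. Of 17 keratins tested, 9 lay below without overlap (52.9%, against 5.1% of all genes) and 0 above. The squamous list also holds keratins, Krt16 and Krt6b among them, so this count is not separate from the squamous one. Keratins did not move as a whole: 11 had negative and 6 positive differences. In all 3 same-numbered pairs 11 were lower and 6 higher, against 19.2% and 23.8% of all genes.

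Genes of the cornified envelope differed among themselves. Tgm1, a transglutaminase, lay below with a log2 difference of -2.67, while Evpl (envoplakin) at -0.68 (0.11 without lesser curvature 2) and Ppl (periplakin) at -1.33, named like Tgm1 after their values were seen, overlapped between the sides. Lor encodes loricrin, the main protein of the envelope, and stood at 0.139, 0.204 and 0.0524 CPM against 14.4, 157 and 79.7 CPM, a log2 difference of -9.22 (SE 2.71). Krtdap, a keratinocyte differentiation gene, stood at 0, 0.306 and 0.0524 CPM against 22.9, 178 and 94.7 CPM. Cnfn, which encodes cornifelin of the envelope, stood at 0, 0.408 and 0 CPM against 8.45, 73.7 and 41.4 CPM. Several greater curvature values rest on a few counts or none. The 21 genes of the late cornified envelope (Lce) family, examined after their values were seen, held 2, 9 and 1 counts in all in the greater curvature libraries and 979, 3334 and 4430 counts in the lesser curvature libraries, or 0.139, 0.459 and 0.0524 CPM against 48.1, 373 and 212 CPM. The members are close copies that can share reads, so the family sum is the safer measure. All 21 had counts in each lesser curvature library, and 8 had any count in a greater curvature library. The family stood at 0 to 0.0551 CPM in antrum tumors, 0 to 5.16 CPM in corpus tumors and 0 to 1691 CPM in normal stomach.

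The exception within the list was Ivl, chosen for mention after its values were seen. Ivl encodes involucrin, an early envelope protein, and stood at 46.1, 39.1 and 24.5 CPM in the greater curvature tumors against 0.688, 9.29 and 7.69 CPM in the lesser curvature tumors, above without overlap. Its log2 difference was 2.64 (SE 1.33).

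To show the sequence next to these genes, the 250 bases before the start of Lor (chr3:92083143-92083392, minus strand), Krtdap (chr7:30787655-30787904, plus strand) and Lce3a (chr3:92926231-92926480, minus strand) are given 5′ to 3′ from RefSeq on GRCm38.p6. They were picked after the values were seen, as an envelope protein, a differentiation gene and a late envelope gene from the set that separated the sides. Capitals mark the AP-1 motif TGANTCA, searched on both strands, where N is any base.
Lor: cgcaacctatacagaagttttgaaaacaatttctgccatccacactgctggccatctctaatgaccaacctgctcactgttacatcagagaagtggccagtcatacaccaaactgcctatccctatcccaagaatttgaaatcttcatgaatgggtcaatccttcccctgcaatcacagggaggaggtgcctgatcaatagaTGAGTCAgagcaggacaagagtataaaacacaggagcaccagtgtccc
Krtdap: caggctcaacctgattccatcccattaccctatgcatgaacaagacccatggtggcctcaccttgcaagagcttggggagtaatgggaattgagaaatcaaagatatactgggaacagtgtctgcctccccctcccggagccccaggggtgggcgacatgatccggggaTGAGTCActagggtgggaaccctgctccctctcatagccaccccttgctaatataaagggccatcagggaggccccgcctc
Lce3a: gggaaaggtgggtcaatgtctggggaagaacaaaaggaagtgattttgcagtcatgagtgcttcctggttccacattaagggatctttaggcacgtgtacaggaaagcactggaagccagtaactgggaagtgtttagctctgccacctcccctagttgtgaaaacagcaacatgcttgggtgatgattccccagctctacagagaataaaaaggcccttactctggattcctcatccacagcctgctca
Lor and Krtdap hold 1 match each and Lce3a holds 0. Of the 22 squamous list genes, 10 have an entry in the promoter table, and 5 of these 10 hold the motif in the 250 bases (Krt13, Ivl, Lor, Sprr1b and Krtdap), beside 6.75% of 32851 promoters in the table. Ivl, which lay in the other direction, is among the 5. Of the 20 Lce genes with an entry, 0 hold it. A match describes the letters in this window only.

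**Figure D3:**
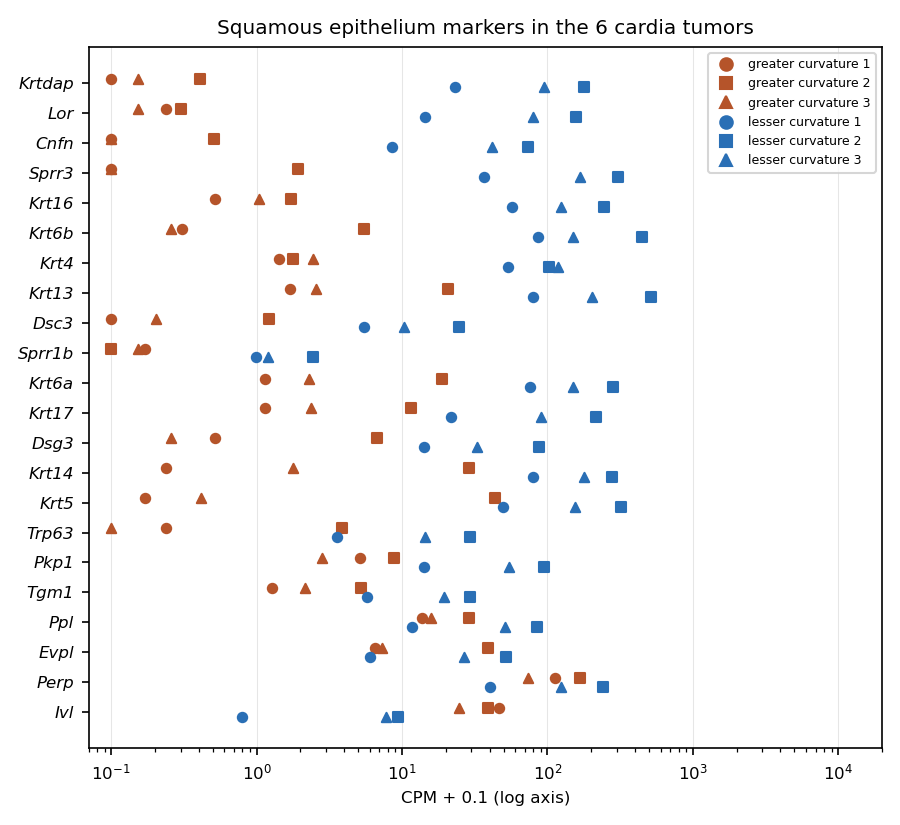
CPM plus 0.1 on a log axis for the 22 squamous list members in the 6 cardia tumors, 1 point per library, ordered by log2 difference, orange for the greater and blue for the lesser curvature, with circles, squares and triangles for numbers 1, 2 and 3. The greater curvature points lie to the left for 17 genes, greater curvature 2 is often the highest of its side, and Ivl at the bottom runs the other way.

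The summed squamous level was 191, 435 and 138 CPM in the greater curvature tumors and 686, 3776 and 1890 CPM in the lesser curvature tumors. The greater curvature sums overlapped with the antrum tumors at 31.2 to 308 CPM and the corpus tumors at 140 to 325 CPM. The normal samples ranged from 238 to 8793 CPM, a range that holds the 3 lesser curvature sums and greater curvature 2, with greater curvature 1 and 3 below it.

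Enzymes of the pancreatic acinar program, digestive proenzymes that some stomach chief cells also make, lay in the opposite direction. All 11 tested members had a positive log2 difference, 4 lay above without overlap (36.4%, against 4.68% of all genes), and the median was 4.42. Without greater curvature 2, 5 lay above, against 10.7% of all genes. In the same-numbered pairs, 7 were higher in all 3, against 23.8% of all genes. Prss2 stood at 125, 1.63 and 12.3 CPM against 0, 0.224 and 0 CPM, and Cela2a, an elastase, at 400, 5.60 and 21.9 CPM against 0.393, 4.03 and 0.382 CPM. Rnase1, a secreted ribonuclease, stood at 82.6, 6.62 and 6.76 CPM against 0.0491, 4.48 and 0.382 CPM. Prss1 was seen at 1.81, 0.102 and 0.314 CPM against 0 in all lesser curvature libraries. Greater curvature 1 was the highest library for these 4 genes, and for Cela2a and Rnase1 greater curvature 2 was only slightly above lesser curvature 2. The summed list stood at 12201, 9738 and 1397 CPM against 2.95, 1829 and 194 CPM, so the sums overlapped, and the normals held 12753 to 21992 CPM. Trypsin genes share reads with close copies. Taken as a family of 6 they held 8014 counts in the greater curvature libraries, 6641 of them in greater curvature 1, and 53 in the lesser curvature libraries.

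Markers of chief cells, which make pepsinogen at the gland base, lay in the same direction but not with the same libraries. All 5 tested markers had positive differences and 2 lay above without overlap (40%, against 4.68% of all genes). Without greater curvature 2 the number was also 2, against 10.7% of all genes. Chia1, an acidic chitinase, stood at 134, 3948 and 262 CPM against 0.0983, 73.5 and 53.6 CPM, and Cpb1, a carboxypeptidase, at 324, 1.78 and 5.19 CPM against 0.0983, 0.895 and 0.0478 CPM. Pgc, the pepsinogen C gene, overlapped at 1617, 40249 and 1605 CPM against 2.06, 2548 and 914 CPM. Cpb1 was highest in greater curvature 1, as Prss2 was, while Chia1 and Pgc were highest in greater curvature 2. The summed list overlapped, at 2134, 44289 and 1893 CPM against 7.47, 2655 and 978 CPM. The median of the 5 was 3.65 and 1.59 without greater curvature 2.

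The other gland markers followed single libraries rather than sides. Pit and neck mucous markers summed to 7263, 70880 and 9300 CPM in the greater curvature tumors and to 148, 27510 and 10037 CPM in the lesser curvature tumors, with the highest sum in greater curvature 2 and the lowest in lesser curvature 1. All 12 had positive differences, and the median of 1.31 was -0.30 without greater curvature 2. None lay apart without overlap (0 of 12), where 4.68% of all genes lay above and 5.1% below. Parietal cell markers summed to 563, 5318 and 611 CPM against 154, 1928 and 600 CPM, with a median of 1.20 that was -0.44 without greater curvature 2. Of these 12 markers 0 lay apart, against the same shares of all genes. With so few members, 0 is near those shares. A general epithelial list, which holds Epcam and Cdh1 beside keratins such as Krt8, Krt18 and Krt19, summed to 2787, 10059 and 3121 CPM against 270, 4826 and 2114 CPM. Antral gland markers stayed at or under 1.17 CPM in sum in all 6 tumors.

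Of 31 neuroendocrine markers tested, 24 had negative differences and 4 lay below without overlap (12.9%, against 5.1% of all genes): Neurod1, Stmn2, Nkx2-2 and Pcsk2. When greater curvature 2 was left out, 5 lay below (9.28% of all genes did) and 1 above (10.7% did). Neurod1, an endocrine transcription factor, stood at 23.5, 0.560 and 44.7 CPM against 91.2, 69.9 and 63.3 CPM. Nkx2-2, another, stood at 1.11, 0.306 and 3.46 CPM against 8.75, 11.9 and 9.65 CPM, and Stmn2, a microtubule regulator of nerve cells, at 6.83, 1.43 and 3.04 CPM against 9.04, 63.7 and 11.0 CPM. The defining granule and vesicle markers overlapped: Chga stood at 4969, 187 and 994 CPM against 408, 1427 and 477 CPM, and Syp at 78.9, 5.71 and 63.3 CPM against 109, 56.7 and 77.9 CPM. Greater curvature 2 was the lowest library for Neurod1, Nkx2-2, Stmn2, Chga and Syp, and its Syp value was under the normal range of 13.5 to 20.0 CPM. The list median was -0.72 and -0.28 without greater curvature 2.

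Growth programs shifted by little. Of 20 mitosis genes 19 had negative differences, as had 21 of 22 DNA replication genes and all 21 Myc targets of ribosome production, with medians of -0.40, -0.31 and -0.43. Without greater curvature 2 the medians were -0.08, 0.02 and -0.08. The summed mitosis level was 2344, 1039 and 3374 CPM against 3375, 2269 and 3309 CPM, above the normal range of 365 to 699 CPM in every tumor.

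**Figure D4:**
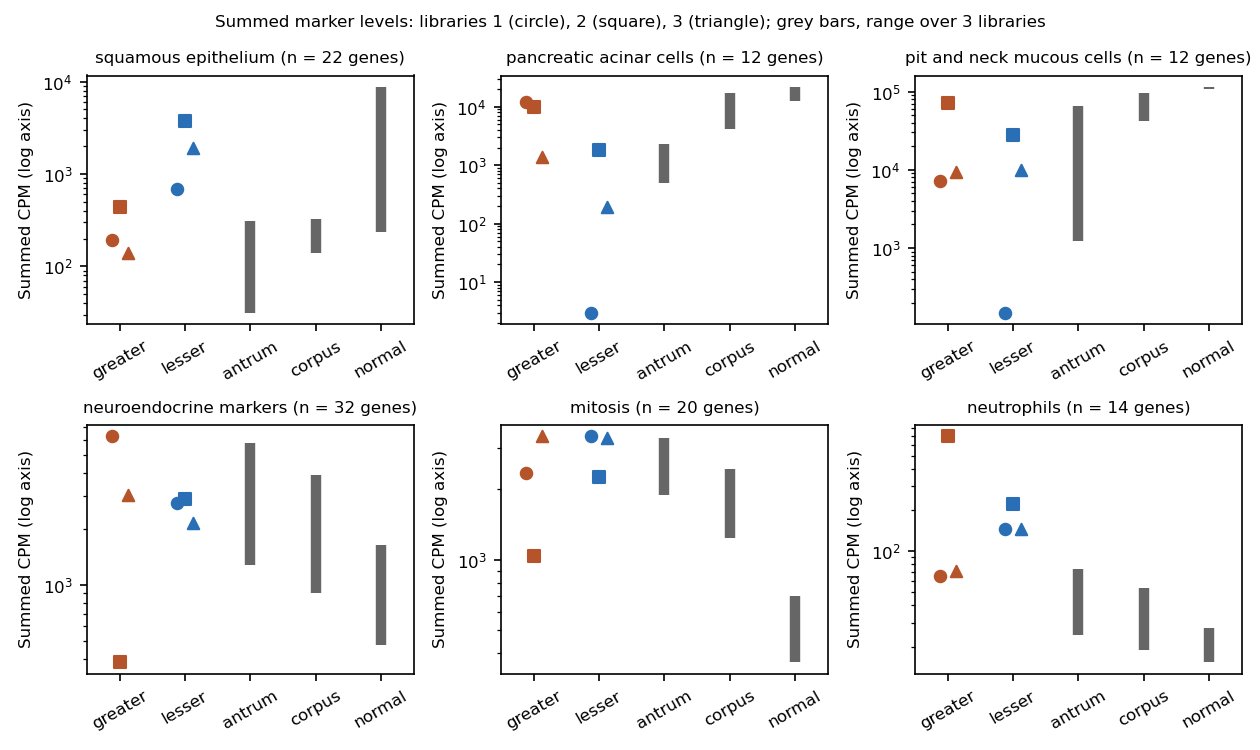
Summed CPM on a log axis for 6 marker lists. Points are the cardia libraries, orange for the greater and blue for the lesser curvature, with circles, squares and triangles for numbers 1, 2 and 3, and grey bars span the 3 libraries of each other group. The squamous sums separate the sides, from at most 435 CPM to at least 686 CPM, while mucous, neuroendocrine, mitosis and neutrophil sums are set apart mainly by greater curvature 2 or lesser curvature 1.

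Among 23 foregut transcription factors, 5 lay above (21.7%, against 4.68% of all genes) and 1 below (4.35%, against 5.1%). Leaving out greater curvature 2, 5 lay above and 4 below, against 10.7% and 9.28% of all genes. Onecut2 stood at 137, 70.8 and 91.1 CPM against 62.3, 50.4 and 44.6 CPM, Onecut3 at 7.80, 16.7 and 6.23 CPM against 1.08, 5.82 and 1.72 CPM, and Barx1, a stomach mesenchyme factor, at 5.85, 6.57 and 3.61 CPM against 2.75, 3.13 and 2.96 CPM. Six2 stayed low, at 0.733 to 1.25 CPM against 0.393 to 0.559 CPM. The other members apart, named after their values were seen, were Irx2 above and Pitx1 below, the latter at 4.60, 27.7 and 6.44 CPM against 33.9, 69.7 and 28.1 CPM. In the retinoic acid pathway, 2 of 10 genes lay above and 1 below (20% and 10%, against 4.68% and 5.1% of all genes). Without greater curvature 2, 3 lay above and 3 below, against 10.7% and 9.28% of all genes. Aldh1a3, which makes retinoic acid, stood at 105, 251 and 93.7 CPM against 4.37, 75.5 and 45.7 CPM. Crabp2, which carries retinoic acid to the nucleus, lay below, at 0.557 to 1.38 CPM against 1.97 to 9.51 CPM. Among 12 ligands and receptors of the EGF receptor family, 1 lay above and 1 below (8.33% each, against 4.68% and 5.1% of all genes). Areg (amphiregulin) stood at 100, 95.9 and 86.2 CPM against 3.73, 47.8 and 22.6 CPM, and Epgn (epigen), the one below, at 0.209, 0.459 and 0.157 CPM against 1.23, 3.69 and 1.43 CPM.

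Of 14 imprinted genes, which are expressed from 1 parental copy, 3 lay below without overlap (21.4%, against 5.1% of all genes) and 0 above. In the 5 libraries without greater curvature 2, 3 lay below and 2 above, against 9.28% and 10.7% of all genes. Peg10, a retrotransposon-derived gene, stood at 49.1, 9.73 and 45.0 CPM against 2643, 124 and 847 CPM, a log2 difference of -5.12 (SE 1.60). Plagl1, a zinc finger factor, stood at 29.0, 41.1 and 27.4 CPM against 53.9, 69.7 and 49.6 CPM, and Cdkn1c, a cell cycle inhibitor, at 4.95, 5.04 and 5.76 CPM against 16.5, 6.71 and 22.5 CPM. Of 12 immediate early genes, which respond within minutes to growth factors or handling, Junb, Egr1 and Ier2 lay above (25%, against 4.68% of all genes), Egr1 at 117, 74.6 and 92.4 CPM against 21.7, 51.8 and 36.6 CPM. Of 18 p53 targets, Btg2 and Gdf15 lay above (11.1%, against 4.68% of all genes) and Tigar, named after its values were seen, below (5.56%, against 5.1%).

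Inflammatory genes were split, and the shares below stand against 4.68% of all genes above and 5.1% below. Among 8 ligands and receptors of the Cxcr2 axis, 2 lay above (25%). Cxcl1 did at 16.8, 23.3 and 17.7 CPM against 14.1, 7.72 and 16.7 CPM, and so did Cxcl15, at 0.348 to 0.662 CPM against 0 to 0.143 CPM. Among 12 neutrophil markers, S100a8 and S100a9, the calprotectin subunits that squamous keratinocytes also make, lay below (16.7%). S100a8 stood at 10.9, 8.92 and 9.17 CPM against 30.7, 21.9 and 17.1 CPM. The summed neutrophil level was 65.8, 695 and 71.8 CPM against 146, 221 and 144 CPM and overlapped through greater curvature 2. Of 13 inflammatory cytokines, Il1a and Tnf lay above (15.4%). Of 17 macrophage markers, Cd14, Itgam and Spp1 lay above (17.6%), but 9 of the 17 had negative differences and the list median was -0.15. Spp1 (osteopontin) stood at 231, 720 and 217.5 CPM against 12.4, 217.2 and 82.1 CPM, so barely apart. The alpha and beta globin genes Hba-a1, Hba-a2 and Hbb-bs, which mark red blood cells, lay above as 3 of 5 erythroid genes, and Hbb-bs stood at 54.0, 53.4 and 56.0 CPM against 30.8, 21.3 and 43.0 CPM. The part of blood content in the other differences was not tested.

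**Figure D5:**
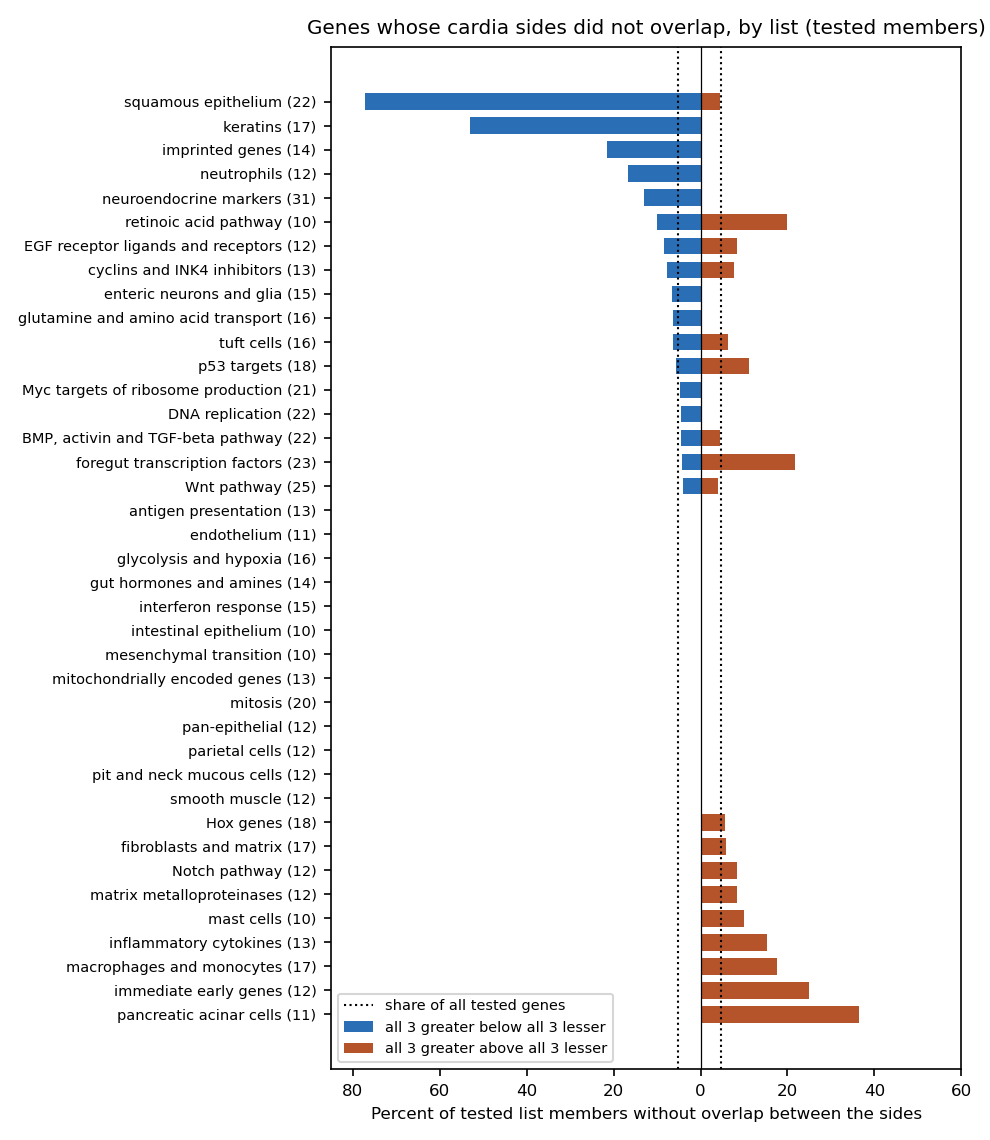
Share of tested members of each list whose 3 greater curvature values lay below (blue, left) or above (orange, right) all 3 lesser curvature values, for lists with at least 10 tested members (number in brackets). Dotted lines give the share over all tested genes, 5.1% below and 4.68% above. Squamous genes and keratins, lists that share genes, extend furthest to the left and pancreatic acinar genes furthest to the right.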

How the data were processed

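Total RNA of 15 mouse stomach samples was sequenced in bulk. The submitters' processing notes name GRCm38.p6 as genome and bcl2fastq 2.19, sleuth, DESeq2 and kallisto 0.44.0 as tools, with no role for each. The authors deposited estimated counts, already whole numbers, for 36144 gene entries. Their other table is labelled FPKM, yet all its columns reach 1 common total, so the deposited values were read as TPM. The design had assumed FPKM. The authors' gene annotation is unknown here. Coordinates are from GENCODE M21.

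The counts entered edgeR 4.0.16 (R 4.3.3): filterByExpr with a minimum count of 10, TMM scaling, 1 robust quasi-likelihood model over all 15 samples by group, and the contrast of greater minus lesser curvature, with p-values adjusted by Benjamini and Hochberg over all tested genes. Depths of 7957165 to 21564972 counts make 1 count worth 0.0478 to 0.112 CPM across all 15 libraries, and this covers counting error only. Genes were named by a rule: up to 12 leading genes in each direction, 10 fixed genes, and up to 4 of smallest p from each of 55 lists. Some genes the rule names are not reported here. The members and lists were chosen with earlier results of these data known. Lists are described by counts and medians only.

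Alternatives were DESeq2 1.42.0, its size factors, no filter, limma 3.58.1 with voom sample weights or on log2 of TPM plus 1 or 0.1, only the 6 cardia tumors, a block for the replicate number, and leaving out each library. Same-numbered libraries of the 2 sides deviated together (correlations of 0.41, 0.55 and 0.16 for numbers 1, 2 and 3). Greater curvature 3, however, correlated more with lesser curvature 1 (0.43) than with its own number. The main model did not pair the sides, and the block was an alternative over all 15 libraries. Same-numbered corpus libraries did not follow: they correlated at -0.40, -0.35 and 0.42 with greater curvature 1, 2 and 3. With lesser curvature 1, 2 and 3 they correlated at -0.38, -0.16 and -0.03. Same-numbered antrum libraries correlated at 0.65, 0.69 and -0.18 with the greater and at 0.66, 0.63 and 0.39 with the lesser curvature libraries. For the normals the values were 0.43, 0.32 and 0.09, and 0.37, 0.30 and 0.14. The 4 Y-linked genes summed to as little as 4.92 CPM in antrum tumors and 1.98 CPM in normals, but to at least 157 CPM in corpus tumors.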

Additional observations from a re-analysis of the deposited data

How the results depend on the processing

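The edgeR fit called 0 genes in each direction, and so did the fits with no filter on low counts, with DESeq2 size factors, with only the 6 cardia tumors, with the replicate block and without greater curvature 2 together, and with each of the 6 libraries left out (0 to 0 genes higher and 0 to 0 lower). DESeq2 called 29 higher and 52 lower. Of these 81, 77 did not overlap between the sides, while over all genes 4.68% lay above and 5.1% below. Calls and overlap come from the same counts, so this is no separate support. Limma voom with sample quality weights called 8 higher and 3 lower, the replicate block 0 higher and 1 lower (Maob), limma on log2(TPM + 1) 5 lower and on log2(TPM + 0.1) 2 lower. The replicate block changed no other call. The TPM table moved the median log2 difference of all genes from 0.04 to -0.22 and -0.25, so its lower calls are read against that shift.

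Among 84 named genes, 6 changed sign in some setting, none of them called. Without greater curvature 2, Pou2f3 was at -0.34, Cxcl5 at -0.29 and Cxcr2 at -0.54. With voom weights Pou2f3 was at -0.49 and Cxcr2 at -0.47. Rb1 was at -0.00348 and -0.00329 on the TPM scales, and Cxcr2 at -0.13 and -0.28. Cxcr2 was at -0.00172 with the replicate block and at -0.51 with the block and without greater curvature 2. Chga was at -0.38 without greater curvature 1, and Evpl at 0.11 without lesser curvature 2. Over the libraries left out in turn, Pou2f3 ran from -0.34 to 1.26, Cxcl5 from -0.29 to 1.87, Cxcr2 from -0.54 to 0.59, Chga from -0.38 to 2.21 and Evpl from -2.04 to 0.11. The cause was not tested.

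The squamous median stayed negative in every setting, from -7.15 without greater curvature 2 to -3.80 without lesser curvature 2. The number of its members lower at an unadjusted p under 0.05 ran from 4, without greater curvature 1 or without greater curvature 3, to 18 with voom weights. With 3 libraries a side and an outlying library, the median 95% interval reached 0.89 on the log2 scale to each side, and values of under 1 CPM rest on few counts.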

Other observations

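The small proline-rich (Sprr) genes, neighbours of the late cornified envelope genes and examined after their values were seen, did not move as 1 block. Of 14 tested, 8 lay below in the greater curvature tumors without overlap and 0 above, against 5.1% and 4.68% of all genes. Sprr3 held 0, 36 and 0 counts in the greater curvature libraries against 741, 2751 and 3489, and Sprr2h held 2, 1 and 1 against 29, 24 and 51. Sprr2i held no count against 24, 80 and 77. Other members were abundant on both sides: Sprr2a2 held 28645, 657244 and 82850 counts against 1678, 92796 and 104124, and Sprr1a held 2316, 3701 and 1217 against 291, 1513 and 1922. The Sprr2a genes are close copies that can share reads, so their single values are uncertain.

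Interferon response genes summed to 70.1, 1249 and 102 CPM in the greater curvature tumors and to 47.3, 526 and 81.6 CPM in the lesser curvature tumors, so the libraries numbered 2 were high on both sides. Of 15 genes 0 lay apart, where 4.68% of all genes lay above and 5.1% below. Antigen presentation genes summed to 1660, 4053 and 755 CPM against 298, 2017 and 569 CPM, and 12 of 13 were higher in the greater curvature library in all 3 same-numbered pairs, against 23.8% of all genes. Of these 13 genes 0 lay apart without overlap, against the same 4.68% and 5.1% of all genes. Their median log2 difference was 1.15, and -0.08 without greater curvature 2.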
